A study of Caenorhabditis elegans with 6 samples.

Results

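Transcript abundance was described in whole Caenorhabditis elegans hermaphrodites of the last larval stage, L4, grown without cycloheximide (CHX), an inhibitor of translation elongation. The animals were rpl-36A(P55Q)/mIn1 heterozygotes. The gene rpl-36A encodes a large-subunit ribosomal protein, and mIn1 is a chromosome II balancer that keeps its alteration heterozygous. Every sample of the series has this genotype, so no wild type level is given here. Synchronized eggs had been placed on plates with no drug at 23 °C, and whole worms were collected 2 days later. The 3 libraries without CHX out of the 6 samples of the series were taken by their labels, with all 20189 protein-coding genes of the count table, and the libraries from CHX plates were not used. The values are a description of 1 group, so there is no contrast between conditions, and the only test asks whether a gene's counts differ between the 3 libraries.

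An L4 larva is building the cuticle of the adult beneath that of the larva. Its germline has made sperm and turns to oocytes near the end of the stage, and the gut, epidermis and body wall muscle are its bulkiest somatic tissues. Cytosolic ribosomal protein genes are among the most strongly expressed genes of growing animals, because each ribosome needs nearly all of these proteins.

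The libraries were shallow, with 352510, 360924 and 313767 counts in replicates 1, 2 and 3 (mean 342400 ± 25152, SD, n = 3, as for all means ± SD here). A gene's level is given as CPM, its count scaled to the library total. Levels are compared between genes as TPM, the same scaling after division by coding length. A gene said to lead a list has the most counts in it, which is no statement on its level per length, and the member with the highest TPM was the same gene in 43 of the 63 lists used here. The floor used here, 3 counts, was 8.51, 8.31 and 9.56 CPM in replicates 1, 2 and 3. A count was found for 10449, 10969 and 10368 genes, for 12519 in any library and for 8735 in all 3. The 5127 genes with a mean of at least 10 counts held 93.2% of counts. Across those 5127 genes Pearson's r of log2(CPM + 1) was 0.872 for replicates 1 and 2, 0.872 for 1 and 3 and 0.878 for 2 and 3, as a description of genes that share a library, and by this measure no library stood apart. Each pair of replicates differed by more than sampling noise, with chi-square per degree of freedom between 2.83 and 3.53, so none looked like a library deposited again. The labels do not say whether replicates came from separate cultures, and p-values therefore measure the spread between these libraries, which may be technical.

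Counts were spread over many genes. The 10 genes with the highest mean CPM held 5.62% ± 0.166 of counts, the top 100 held 23.0% ± 0.236 and the top 1000 held 61.5% ± 0.795. Of the top 100, 30 are in the list of cytosolic ribosomal protein genes and 12 in that of cuticle collagens. The 3 cumulative curves lay close together, and replicate 2 needed the most genes to reach 90% of its counts, 4225 against 3917 in replicate 1 and 3998 in replicate 3.

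**Figure D1:**
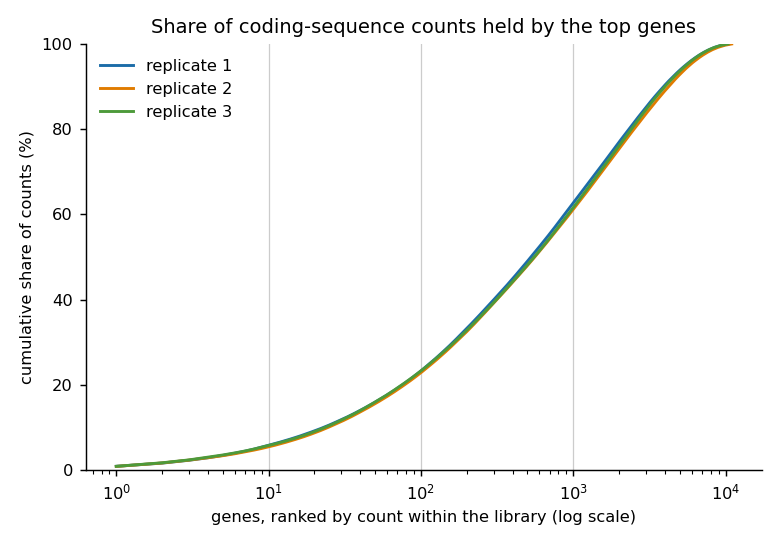
Cumulative share of counts (%) against the number of genes ranked by count within each library (log scale), 1 curve per library. The curves nearly coincide, with the top 100 genes of each library at 23.3% in replicate 1, 22.9% in replicate 2 and 23.3% in replicate 3.

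The machinery of translation led the libraries. The gene with the highest mean CPM was eef-2 (WBGene00001167, chromosome I, 9163531 to 9166828 in WBcel235), which encodes the elongation factor that moves the ribosome along the message. It stood at 8959, 8054 and 8831 CPM in replicates 1, 2 and 3, with replicate 2 below the other two. Next was eef-1A.1 (chromosome III, 6970026 to 6972003), for the factor that brings aminoacyl-tRNA to the ribosome, at 7475, 8692 and 8347 CPM. Here replicate 1 was the lowest. Per coding length the order turned, with 6474 ± 497 TPM for eef-1A.1 and 3713 ± 224 TPM for eef-2. The paralog eef-1A.2 is similar in sequence, so reads may be divided between it and eef-1A.1 in an unknown way. Together 41 translation factor genes held 3.01% ± 0.0673 of counts, and pab-1, for the poly(A)-binding protein, had 2377 ± 185 CPM. The 32 aminoacyl-tRNA synthetase genes held 0.580% ± 0.00317, led by tars-1, for threonine, at 579 ± 34.2 CPM. The 17 nucleolar ribosome assembly genes held 0.495% ± 0.0137, among them fib-1, for fibrillarin, at 1054 ± 171 CPM and nol-58 at 969 ± 103 CPM.

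The list of cytosolic ribosomal protein genes held the largest share of counts of any list. It does not hold every such gene, as C37A2.7, named below, is missing, so the values are for listed genes only. Of 83 genes 81 had a count, and together they held 9.62% ± 0.283 of counts and 19.1% of TPM. Their share was 9.29% in replicate 1 (95% exact Clopper-Pearson interval 9.20 to 9.39), 9.78% in replicate 2 (9.69 to 9.88) and 9.79% in replicate 3 (9.68 to 9.89). Replicate 1 was therefore below the other two by more than counting error, which is all these intervals cover. On the TPM scale they took 52 of the top 100 places. The highest was rpl-26 (chromosome II), of the large subunit, at 7405 ± 605 TPM, from 3126, 2663 and 2852 CPM in replicates 1, 2 and 3. The small subunit genes rps-26, at 6625 ± 575 TPM, rps-8, at 5923 ± 354 TPM, and rps-4, at 5868 ± 724 TPM, followed, and their values overlapped within their spread. The 79 members with enough counts to be tested had a median of 2116 TPM and ran from 392 TPM for rpl-24.2 to the level of rpl-26, and 67 of them were above 1000 TPM. At the other end rpl-41.2 had 3, 1 and 4 counts, rpl-42 had 1 count in replicate 1 only, and rpl-37 and rpl-41.1 were at 0 in all 3 libraries. The coding sequences of rpl-41.1 and rpl-41.2 have 69 bases each. How reads were assigned to genes is not known, so these low counts are uncertain as levels of expression.

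The mutated gene was one of the less abundant of these genes. Listed as rpl-36.A (chromosome II, minus strand, 11096542 to 11097204, WBGene00004454), with 3 exons and a coding length of 318 bases, it had 56, 86 and 59 counts, or 159, 238 and 188 CPM in replicates 1, 2 and 3. Replicate 2 was the highest, but the 3 counts did not differ beyond counting error after adjustment (chi-square test over all tested genes, Benjamini-Hochberg adjusted p 0.140). The mean of 195 ± 40.2 CPM was rank 1030 of all genes, and 676 ± 137 TPM was rank 262. Among the 83 ribosomal protein genes it was rank 72 on either scale, and by TPM it lay between rps-28 at 722 TPM and rps-27 at 669 TPM. Few reads fell on this gene, and the counts do not tell the altered allele from the copy on the balancer.

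**Figure D2:**
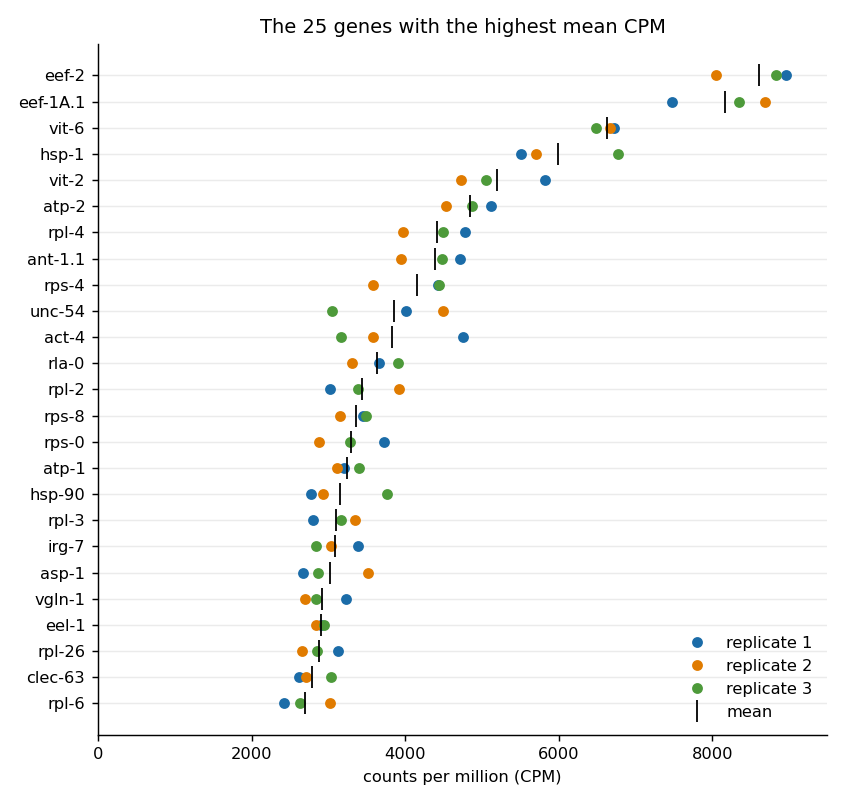
CPM in each library (points) and the mean (bar) for the 25 genes with the highest mean CPM, from eef-2 at 8615 CPM down to rpl-6 at 2693 CPM. Libraries lie close for vit-6 and eel-1 and apart for act-4 and unc-54.

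Other genes near the top served yolk, energy, folding and contraction. The chaperone gene hsp-1, for a cytosolic heat shock 70 protein that is made constitutively, stood at 5993 ± 676 CPM, and hsp-90 at 3157 ± 528 CPM. ATP synthase subunit genes atp-2 and atp-1 had 4843 ± 291 and 3239 ± 150 CPM, and ant-1.1, for the main mitochondrial ADP/ATP carrier, had 4383 ± 397 CPM. Of the other carrier genes ant-1.4 had 148 ± 20.2 CPM and ant-1.3 had 52 ± 15.1 CPM, and ant-1.2 was at 0. Long coding sequences drew counts without being abundant per length. The ubiquitin ligase gene eel-1, with a coding length of 12558 bases, was rank 22 by CPM at 2898 ± 53.5 and rank 630 by TPM at 255 ± 6.07. Likewise irg-7, named as an infection response gene, with 6654 coding bases, was rank 19 by CPM and rank 335 by TPM. On the TPM scale 2 short genes that the files give by sequence name alone stood among the first 15, F41F3.3 at 5721 ± 782 TPM and Y48G8AL.12 at 4766 ± 1181 TPM. The gene C37A2.7, which carries the symbol of a ribosomal stalk protein in the RefSeq gene table and which the list of ribosomal proteins did not hold, was at 4994 ± 298 TPM. The top 100 genes by CPM and by TPM had 65 genes in common.

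**Figure D3:**
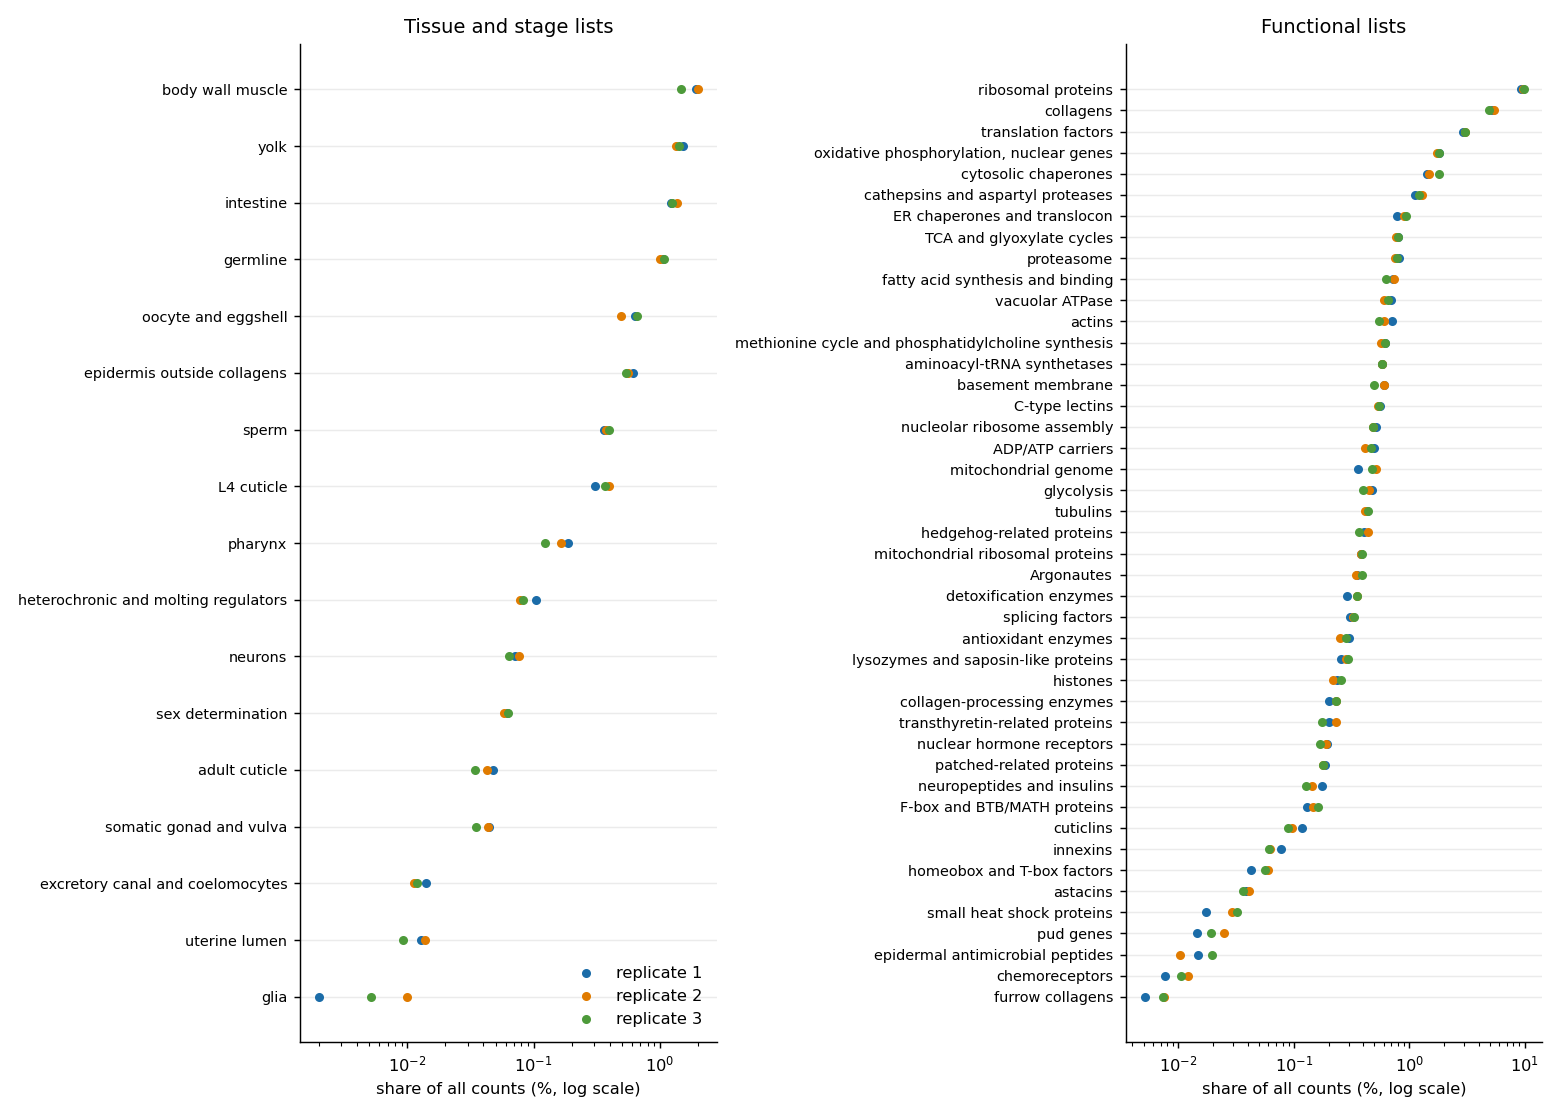
Share of all counts (%, log scale) held by each gene list with a count in every library, 1 point per library. Tissue and stage lists are on the left and functional lists on the right. Lists that hold more than 0.1% of counts vary little between libraries against the range between lists, with ribosomal proteins the highest at 9.62%. Male markers and early embryo genes, with 1 count each in all, had no count in some libraries and are not drawn.

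Cuticle collagens were the next class, the triple-helical proteins of the exoskeleton that the epidermis secretes anew at each molt. Of 178 genes 129 had a count, and together they held 5.18% ± 0.269 of counts. Their share was 5.24% in replicate 1 (interval 5.17 to 5.31), 5.41% in replicate 2 (5.33 to 5.48) and 4.88% in replicate 3 (4.81 to 4.96), so replicate 3 was the lowest. The collagens col-73 (2193, 2314 and 2266 CPM in replicates 1, 2 and 3), col-175 (2238, 2036 and 2467 CPM) and col-71 (1972, 2277 and 2177 CPM) led. No library was the lowest for all 3. Collagens of body shape were also well counted, with dpy-13 at 1434 ± 46.1 CPM and dpy-5 at 1221 ± 315 CPM. The 6 furrow collagens, which form the ring grooves of the cuticle, held 0.00664% ± 0.00133 of counts, 82.4% of it from dpy-8. This gene had 16, 24 and 16 counts, above the floor. The other members were near the floor or under it, as dpy-10 with 0, 1 and 4 counts. The reads of similar collagens may be divided between copies in an unknown way.

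The collagen-processing genes held 0.223% ± 0.0171 of counts, with pdi-2 and dpy-18, the subunits of prolyl 4-hydroxylase, at 1092 ± 154 and 524 ± 88.7 CPM, and bli-4, for a proprotein convertase, at 259 ± 11.8 CPM. Of 35 cuticlin genes, for non-collagen cuticle proteins, cut-2 alone held 84.4% of the counts of the list, at 854 ± 128 CPM. The hedgehog-related genes held 0.405% ± 0.0353, 48% of it from grl-16, of the ground-like family, at 1651, 2239 and 1963 CPM in replicates 1, 2 and 3. Epidermal genes outside the collagens held 0.570% ± 0.0382 of counts but 0.145% of TPM, and the leading genes are long, with 13353 coding bases in let-805. These were let-805, at 1831 ± 263 CPM, mup-4, at 929 ± 94.9 CPM, and vab-10, at 908 ± 154 CPM, all of the attachments that tie epidermis to muscle and cuticle. The highest TPM of the list was that of the molting gene mlt-8, at 291 ± 101 TPM, against 151 ± 21.3 TPM for let-805. The epidermal molting regulator nhr-23 had 9, 13 and 4 counts.

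Stage markers were read against the L4 label. The L4 cuticle genes were well counted, with col-38 at 1816 ± 225 CPM, col-63 at 880 ± 55.8 CPM and col-49 at 869 ± 209 CPM, and all 3 were lowest in replicate 1. Of the adult cuticle genes col-19 had 474, 430 and 341 CPM in replicates 1, 2 and 3, while col-7 and col-62 had 0 counts in every library. The L4 genes thus held 0.357% ± 0.0466 of counts and the adult genes 0.0415% ± 0.00676. The timing gene lin-42, a period homolog whose message cycles with the molts, had 573, 302 and 427 CPM (chi-square adjusted p 1.72e-05), with replicate 1 well above replicate 2. The larval timing genes of earlier stages lin-14, lin-28 and hbl-1 were near the floor. Their counts were 7, 12 and 1 for lin-14, 4, 9 and 9 for lin-28 and 1, 1 and 0 for hbl-1. Not all timing genes were this low, as lin-41 had the most counts of the timing and molting regulators after lin-42, well above the floor. The adult switch gene lin-29 had 1, 3 and 4 counts and its partner mab-10 had 22, 13 and 20. Of 10 genes of the early embryo only end-1 had a count, a single one, and of 9 male markers only try-5 had one, also a single count. Genes known from adults, for yolk and eggshell proteins, were also counted, and their values follow. The values are given beside the label, and a finer age within the stage was not tested.

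Body wall muscle genes held 1.8% ± 0.283 of counts over 29 members, all with a count. The share was 1.93% in replicate 1 (interval 1.88 to 1.98), 1.99% in replicate 2 (1.95 to 2.04) and 1.48% in replicate 3 (1.43 to 1.52), so replicate 3 lay well below the other two. The major muscle myosin heavy chain gene unc-54 had 4017, 4491 and 3047 CPM, the actin gene act-4 had 4754, 3577 and 3162 CPM, and the paramyosin gene unc-15 had 1662, 1399 and 1128 CPM in replicates 1, 2 and 3. All 3 were lowest in replicate 3. Per coding length act-4, at 4627, 3471 and 3103 TPM, stood above unc-54, at 750, 837 and 574 TPM in those libraries. The actin genes act-1 to act-4 are nearly identical, and how their reads were divided is not known, so act-4 at 3831 ± 826 CPM, act-2 at 677 ± 114, act-1 at 257 ± 60.8 and act-3 at 124 ± 25.6 are uncertain. The giant kinase genes unc-22 and unc-89 had 907 ± 218 and 684 ± 63.3 CPM, and the muscle transcription factor gene hlh-1 had 1, 2 and 1 counts. Basement membrane genes, for the sheet between muscle and epidermis, held 0.571% ± 0.0639, led by unc-52, for perlecan, at 1714 ± 177 CPM, ost-1, for the collagen-binding protein SPARC, at 707 ± 137 CPM and the type IV collagen gene let-2 at 636 ± 93.8 CPM. The highest TPM of these was that of ost-1, at 980 ± 186 TPM, against 187 ± 19 TPM for unc-52. Pharynx genes held 0.159% ± 0.0332, led by abu-14 at 551 ± 136 CPM, and the pharyngeal myosin genes myo-1 and myo-2 had 147 ± 20 and 130 ± 21 CPM. In bulk samples such as these, fewer cells of a type and less RNA per cell cannot be told apart.

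Yolk protein genes held 1.42% ± 0.103 of counts with only 6 members. They are known as products of the adult hermaphrodite intestine, taken up by oocytes. The gene vit-6 (chromosome IV) had 6723, 6669 and 6483 CPM in replicates 1, 2 and 3, and vit-2 (chromosome X) had 5824, 4730 and 5055 CPM. Counts of vit-6 did not differ beyond counting error (chi-square adjusted p 0.583), whereas vit-2 was highest in replicate 1 (adjusted p 8.33e-08). Per coding length vit-6 stood at 1474 ± 20.8 TPM and vit-2 at 1185 ± 128 TPM, ranks 105 and 141. The other members were lower per coding length, with vit-1 at 275 ± 58 TPM, vit-5 at 203 ± 41.4 TPM, vit-3 at 48.2 ± 9.22 TPM and vit-4 at 25.8 ± 1.23 TPM. The genes vit-3, vit-4 and vit-5 are close copies whose reads cannot be told apart with certainty.

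The other intestinal genes held 1.28% ± 0.0764 of counts. The aspartyl protease gene asp-1 (2672, 3519 and 2868 CPM in replicates 1, 2 and 3) and the cathepsin B gene cpr-6 (2130, 1721 and 2241 CPM) led, both for digestive proteases. These genes varied in opposite ways, since replicate 2 was the highest for asp-1 and the lowest for cpr-6. The intestinal actin gene act-5 stood at 1306 ± 54.3 CPM, while the intestinal transcription factor gene elt-2 had 7, 9 and 3 counts. Among C-type lectins, secreted proteins many of which take part in immunity, 89 of 240 genes had a count and clec-63 alone held 50.5% of the list, at 2788 ± 221 CPM. Lysozyme and saposin-like genes held 0.278% ± 0.0193, led by lys-1 at 608 ± 54.5 CPM, while per coding length ilys-5 was higher, at 1066 ± 126 TPM against 747 ± 63.7 TPM.

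Germline genes held 1.05% ± 0.0419 of counts, and all 48 members had a count. The RNA helicase gene cgh-1 had 1232 ± 184 CPM, gld-1, a translational repressor, had 1043 ± 87.1 CPM, and the Y-box gene cey-2 had 975 ± 171 CPM. Per coding length cey-2 was the highest of the list, at 1337 ± 236 TPM. The germ granule helicase gene glh-1 had 955 ± 70.5 CPM. Oocyte and eggshell genes held 0.592% ± 0.0869, with 31 of 32 members counted. Their share was 0.630% in replicate 1 (interval 0.604 to 0.657), 0.493% in replicate 2 (0.470 to 0.516) and 0.654% in replicate 3 (0.626 to 0.682), so replicate 2 was the lowest. The eggshell genes cbd-1 (879, 831 and 1058 CPM), cpg-2 (1078, 643 and 943 CPM) and cpg-1 (735, 637 and 749 CPM) led the list, and each was lowest in replicate 2. Per coding length cpg-2, at 622 ± 157 TPM, stood above cbd-1, at 257 ± 34.9 TPM. The yolk receptor gene rme-2 had 228 ± 46.6 CPM.

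Of 89 sperm genes 76 had a count, and together they held 0.376% ± 0.0170 of counts and 0.634% of TPM. The members with the most counts were sss-1 (332, 382 and 414 CPM in replicates 1, 2 and 3) and ssq-2 (281, 363 and 408 CPM), both highest in replicate 3. The phosphatase gene gsp-3 had 162 ± 2.06 CPM. Of 31 genes for major sperm protein, the cytoskeletal protein of the crawling sperm, 27 had a count. They held 0.103% ± 0.0144 of counts, led by msp-76 at 113 ± 21.2 CPM. Per coding length msp-76 and ssq-2 were close, at 325 and 318 TPM. These copies are nearly identical, so their counts are uncertain. Replication-dependent histones are similar multigene families, and 37 of 81 histone genes had a count, led by his-59 at 612 ± 64.3 CPM. In the sex determination pathway tra-1, the terminal regulator of female fate in the soma, had 231 ± 43.3 CPM, and the male-promoting genes fem-2 and fem-1 had 88.2 ± 38 and 62.1 ± 12.6 CPM. The genes her-1, xol-1 and fog-3 had 0 counts.

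Neuronal genes held 0.0709% ± 0.00639 of counts, although 30 of 34 had a count. Neuropeptide processing enzyme genes led them in counts, with egl-3 at 139, 97 and 105 CPM and egl-21 at 90.8, 97 and 25.5 CPM in replicates 1, 2 and 3. Counts of egl-21, lowest in replicate 3, differed beyond counting error (chi-square adjusted p 0.00893). The synaptic gene rab-3 had 9, 6 and 7 counts, near the depth limit. The short synaptobrevin gene snb-1 had the highest TPM of the list, 110 ± 19.5, from 14, 11 and 9 counts. Glial markers held 0.00569% ± 0.00403, and fig-1 with 7, 25 and 11 counts was most of it. Without replicate 2 the share was 0.00354%. Chemoreceptors, the largest gene family of the lists, had a count for 50 of 1314 genes and held 0.0101% ± 0.00229 of counts. The one with the most counts, srr-4, had 5, 1 and 5 counts. At this depth a gene without a count may still be transcribed below about 3 counts in a library.

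Genes of energy metabolism were counted throughout. Nuclear genes of oxidative phosphorylation held 1.78% ± 0.0459 of counts, all 49 with a count, and atp-3 stood at 1089, 1111 and 1112 CPM in replicates 1, 2 and 3. The 16 genes of the TCA and glyoxylate cycles held 0.792% ± 0.0139, led by icl-1, the glyoxylate cycle enzyme, at 1360 ± 396 CPM, while the malate dehydrogenase gene mdh-2 had the highest TPM, 957 ± 140. Glycolysis genes held 0.441% ± 0.0371, led by the enolase gene enol-1 at 1413 ± 148 CPM. In the methionine cycle ahcy-1, for the enzyme that clears S-adenosylhomocysteine, had 1447 ± 57 CPM, and fatty acid synthesis and binding genes were led by far-2, for a lipid-binding protein, at 1478 ± 210 CPM.

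The 10 genes of the mitochondrial genome in the table held 0.451% ± 0.0823 of counts, a share that differed between libraries. It was 0.359% in replicate 1 (interval 0.339 to 0.379), 0.518% in replicate 2 (0.494 to 0.542) and 0.476% in replicate 3 (0.452 to 0.501). Replicate 1 was the lowest for 7 of the 9 tested members. The cytochrome oxidase subunit genes ctc-1 (1254, 1665 and 1600 CPM) and ctc-3 (641, 1031 and 873 CPM) and the cytochrome b gene ctb-1 (704, 840 and 838 CPM) held 69.8% of it, and ctc-3 had the highest TPM, 1223 ± 281. What set these libraries apart was not tested.

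The 41 cytosolic chaperone genes held 1.58% ± 0.209 of counts. In the secretory pathway hsp-3, one of 2 genes for the BiP chaperone, had 1841, 1920 and 2145 CPM in replicates 1, 2 and 3, and crt-1, for calreticulin, had 1143, 1662 and 1606 CPM. The other BiP gene, hsp-4, known as a reporter of the unfolded protein response, had 479, 637 and 1275 CPM, with replicate 3 far above the other two. The 13 small heat shock protein genes held 0.0264% ± 0.00803, at 0.0173%, 0.0294% and 0.0325% in replicates 1, 2 and 3, so replicate 1 was the lowest. All 4 tested members were highest in replicate 3, as were 33.6% of all tested genes. For hsp-16.2 replicates 2 and 3 were all but equal, and only hsp-17 differed beyond counting error, against 22.9% of all tested genes. The heat shock reporter gene hsp-16.2 varied little, at 59.6, 63.7 and 63.7 CPM, and hsp-17 had 7, 27 and 27 counts (chi-square adjusted p 0.00768). Proteasome genes held 0.782% ± 0.0362, all 33 with a count and led by rpt-2, for an ATPase of the cap, at 716 ± 196 CPM. Antioxidant enzymes were mostly prdx-2, for a peroxiredoxin, at 2139 ± 268 CPM, which held 76.9% of the counts of its list.

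The libraries were then set against each other, gene by gene. Of 4860 genes with an expected count of at least 10 in every library, 1114, or 22.9%, differed between the 3 libraries (chi-square test on counts, Benjamini-Hochberg adjusted p under 0.05). At an unadjusted p under 0.05 there were 1792. Counting error, as the inverse square root of a gene's mean count, had a median of 18.7%, and the measured coefficient of variation had a median of 24.3%. A coefficient measured on 3 libraries tends to fall below its true value, so this comparison understates the spread beyond counting error. The share of genes that differed grew with the count, from 16.9% at 10 to 30 mean counts to 53.0% at 300 to 1000 and 18 of 21 genes above 1000. This does not mean that genes with more counts varied more. Their median coefficient of variation was lower, at 31.8% for 10 to 30 mean counts, 10.3% for 300 to 1000 and 9.17% above 1000. Genes that differed had a median ratio of 2.22 between the highest and the lowest library, and the others 1.5. The common biological coefficient of variation, the spread beyond counting, was 19% in edgeR over 4101 genes. The test compares libraries of 1 condition and says nothing of a treatment.

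**Figure D4:**
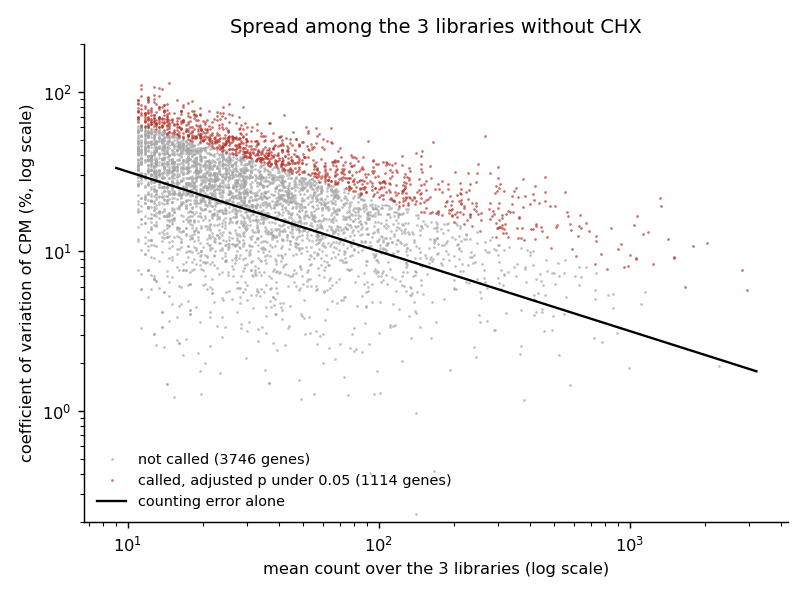
Coefficient of variation of CPM (%, log scale) over the 3 libraries against the mean count (log scale) for the 4860 tested genes, with the 1114 that differed in red and the line of counting error alone in black. At low counts most genes lie around the line, and above 1000 counts 18 of 21 genes differed.

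The gene with the smallest p was hsp-4, with 169, 230 and 400 counts in replicates 1, 2 and 3 (chi-square adjusted p 1.98e-29), a ratio of 2.66 between replicates 3 and 1. The message of xbp-1, the transcription factor of the same response, named here after its values were seen, was also highest in replicate 3, with 338, 293 and 404 counts (adjusted p 4.40e-07). The other BiP gene hsp-3 had an adjusted p of 0.0624. Of 15 listed genes for chaperones and translocon of the endoplasmic reticulum 7 differed, against 22.9% of all tested genes. The median of these genes was 319 CPM, and of all genes with 100 to 300 mean counts 40.2% differed. Most of this list did not follow hsp-4, as 9 of the 15 were highest in replicate 2 and 3 in replicate 3. The list does not hold every such gene, as sec-61, highest in replicate 1, and enpl-1, highest in replicate 2, are missing. Next by p were act-4 (adjusted p 1.76e-23) and unc-54 (1.39e-17), whose values stand above. The aldehyde dehydrogenase gene alh-12 had 239, 80 and 175 counts (adjusted p 1.29e-15), with replicate 2 low. The gene icl-1 had 364, 450 and 565 counts (adjusted p 2.10e-14), with replicate 3 high. The calponin-like gene clik-1 had 242, 434 and 222 counts and the megalin homolog lrp-1 had 163, 351 and 232, both highest in replicate 2. In turn vha-12, for a subunit of the vacuolar ATPase, had 696, 440 and 525 counts and was highest in replicate 1. The small subunit gene rps-15 had 204, 387 and 241 counts, a ratio of 1.85 between CPM of replicates 2 and 1. Very even genes also existed, as cpr-5 had 411, 413 and 411 CPM and eel-1 had 2911, 2840 and 2945 CPM.

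Some lists had members that tended to 1 side in a library. Of 17 lists with at least 20 tested members, 7 had 1 library as the lowest for over 50% of them, and the others had none. The lists described here were picked for this after their values were seen, and no test was made of it. Over all tested genes the lowest library was replicate 1 for 35.6%, replicate 2 for 33.1% and replicate 3 for 31.3%. Replicate 3 was the lowest for 23 of 28 body wall muscle genes, with a median log2 deviation of -0.27 from the mean, against 0.01 for all tested genes. In this list 15 of 28 differed, or 53.6%, against 22.9% of all tested genes. The share that differed grew with the count, and the numbers below are to be read with that. Of all genes with 100 to 300 mean counts 40.2% differed, and of those with 30 to 100 mean counts 23.6% differed. The median of mean counts was 130 for body wall muscle and 126 for collagens. It was 78.7 for cytosolic chaperones and 40.8 for oocyte and eggshell genes. Replicate 3 was also the lowest for 7 of 9 basement membrane genes and for 49 of 91 collagens. Of the 91 collagens 38 differed, 22 of them lowest in replicate 3. Of the 9 basement membrane genes 8 differed, 7 of them lowest in replicate 3. The median of the 13 basement membrane genes listed was 414 CPM. By contrast 21 of 30 cytosolic chaperone genes were highest in replicate 3 (median log2 deviation 0.18, 10 differed), among them hsp-1 at 5512, 5702 and 6766 CPM, hsp-90 at 2777, 2934 and 3761 CPM and the chaperonin gene cct-7 at 289, 355 and 618 CPM in replicates 1, 2 and 3. Replicate 2 was the lowest for 19 of 28 oocyte and eggshell genes (median log2 deviation -0.29, 12 differed). Replicate 1 was the lowest for 47 of 79 ribosomal protein genes (median log2 deviation -0.11, 34 differed). These genes had a median of 321 mean counts, and of all genes with 300 to 1000 mean counts 53.0% differed. Of the sperm genes 3 of 33 differed, with a median of 21.7 mean counts, and 16.9% of all genes with 10 to 30 mean counts differed. Of the germline genes 9 of 38 differed, or 23.7%, close to the 22.9% of all tested genes. In these 2 lists no library was the lowest for over 50% of members. Without replicate 3 the muscle share was 1.96% and the cytosolic chaperone share 1.46%, and without replicate 2 the oocyte and eggshell share was 0.642%. What moved these groups was not tested.

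**Figure D5:**
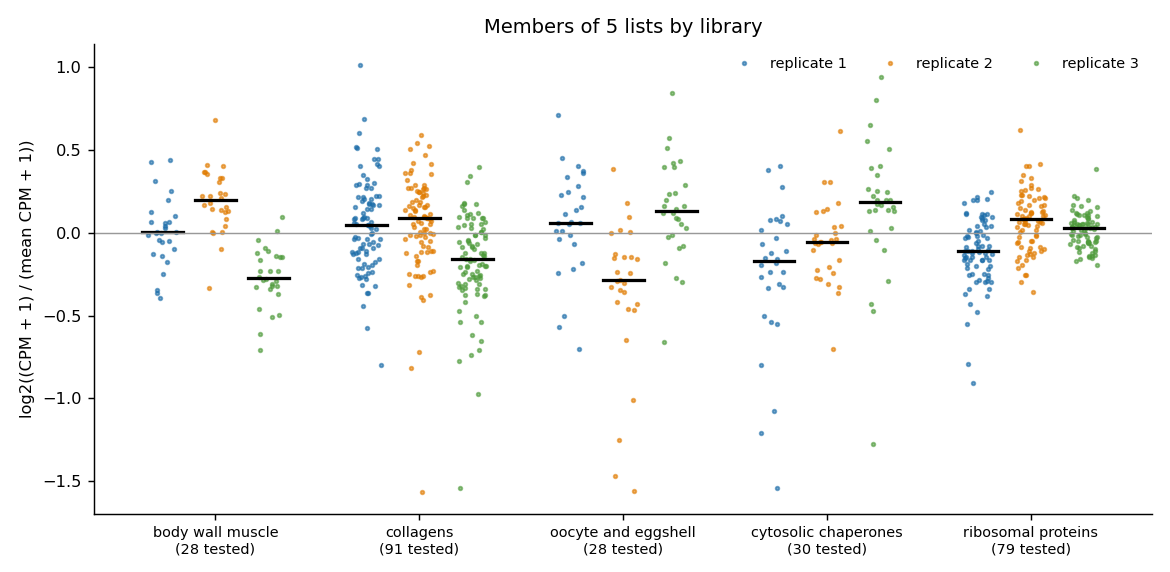
Log2 of CPM + 1 over the mean CPM + 1 for each tested member of 5 lists, by library, with medians as bars. Body wall muscle genes lie low in replicate 3 (median -0.27) and oocyte and eggshell genes in replicate 2 (median -0.29), while cytosolic chaperones lie high in replicate 3 (median 0.18).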

How the data were processed

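Counts were deposited by the authors as whole reads in the coding region of 1 transcript per protein-coding gene, and the row names give WBcel235 positions. Builds and tools named in the submitters' processing notes are WBcel235 and DESeq2, with no version. The labels' protocols state Trizol extraction, removal of ribosomal RNA by RNase H and a SMARTER library kit. How reads were aligned and whether strand, duplicates or multiple matches were considered is not given in the sources used here, so overlapping, antisense and near-identical genes cannot be told apart. Without molecular identifiers, intervals cover counting error only.

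CPM used library totals. TPM used Ensembl coding lengths of the same build (18408 genes by transcript, 1489 with 23.2% of counts by the longest coding sequence, 292 with none). Each gene's counts were tested for homogeneity over the libraries by chi-square (smallest expected count 10, Benjamini-Hochberg threshold 0.05), a test checked on simulated data. The tools were edgeR 4.0.16 in R 4.3.3, python 3.11.15, pandas 2.3.3, scipy 1.17.1, numpy 2.4.6 and matplotlib 3.10.9. Genes and the 63 lists were chosen with earlier results of these data known, and the chemoreceptor list was narrowed after its matches were seen. Lists overlap, 5 of their names matched no gene, and 41.3% of counts fell in any list. Alternatives were TPM, other filters, TMM sizes, an exact test and leaving out each library.

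Named genes were the 25 highest in CPM, the 15 highest in TPM, 3 leading members of each list, all members of short stage lists, those with the smallest p overall or in a list, and the mutated gene. Chosen after their values were seen were the members with the highest TPM of a list where they differ from the leading ones, hsp-17, xbp-1, cct-7, act-1, act-3, glh-1, hlh-1, elt-2, rab-3, rme-2, gsp-3, msp-76, myo-2, unc-22, unc-89, cpr-5, eef-1A.2, dpy-13, sca-1, hsp-60, dhc-1 and the less abundant ribosomal protein genes. The same holds for sec-61 and enpl-1.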

Additional observations from a re-analysis of the deposited data

How the results depend on the processing

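The number of genes detected was 6757 with at least 3 counts in every library and 5127 with a mean of at least 10 counts, against 12519 with any count, and 11674 to 11960 with 1 library left out. On the TPM scale the same 100 genes held 23.7%, ribosomal protein genes 19.1%, collagens 6.27% and mitochondrial genome genes 0.538%. With 1 library left out, these shares of counts ran from 22.9% to 23.2%, 9.54% to 9.78%, 5.06% to 5.32% and 0.417% to 0.497%. The number of genes that differed between libraries was 711 of 2137 tested with an expected count of at least 30. It ran from 445 to 751 with 1 library left out, 445 without replicate 1, 521 without replicate 2 and 751 without replicate 3, of which 415, 460 and 629 were among the 1114. A test of 2 libraries has fewer libraries to differ. With all 3 libraries the number was 1255 with an expected count of at least 5, 1118 with TMM sizes and 1161 with an exact test for totals up to 300 counts. The biological coefficient of variation ran from 17.1% to 20.1% with 1 library left out and was 27% with no filter on low counts. Of 60 list shares, taking nuclear genes as denominator moved none by more than 1 SD, and TPM moved 46. Leaving out 1 of 3 libraries cannot move a mean by 1 SD, so it gives no sign of stability. The glial share was 0.00354% without replicate 2, against 0.00569%, and the shares of male markers and early embryo genes rest on 1 count each. No paired analysis was possible because only 1 group is used. Depth limits all genes near 3 counts, and a gene at 0 is not shown to be silent.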

Other observations

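Counts were unevenly spread over chromosomes. Chromosome I held 20.4% ± 0.287 of counts with 14.4% of genes, and chromosome V held 15.1% ± 0.144 with 24.7% of genes, of which 52.5% had no count. The X chromosome held 9.83% ± 0.642 of counts with 13.8% of genes, at 10.4%, 9.93% and 9.14% in replicates 1, 2 and 3, so it was lowest in replicate 3. Its gene with the most counts was vit-2. On the 5 autosomes the middle of 3 equal parts of each chromosome held 38% of genes and 45.2% ± 0.325 of counts. Genes that the deposited counts give by sequence name alone were 49.4% of genes and held 21.4% ± 0.0696 of counts. In the top 100 there were 7 of them. Such a gene may have a symbol elsewhere, as C37A2.7 does in the RefSeq gene table.

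Coding length separated the scales. The 308 genes with more than 4800 coding bases held 10.2% ± 0.269 of counts but 1.68% of TPM, and 13 were in the top 100 by CPM and 0 by TPM. Genes of 300 to 600 coding bases held 11.6% ± 0.194 of counts and 28.4% of TPM. Of 26 genes in the top 100 that no list held, several serve transport and folding, among them sca-1, for the calcium pump of the endoplasmic reticulum, at 2612 CPM, hsp-60, for the mitochondrial chaperonin, at 2519 CPM, and dhc-1, for the dynein heavy chain, at 1693 CPM. The counts of dhc-1 were 606, 603 and 530 in replicates 1, 2 and 3.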
